A study of Mus musculus with 6 samples.

Results

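Interferons act on cells through receptor chains that carry Janus kinases (JAKs) and pass the signal to STAT transcription factors. The 8 genes described here are 4 receptor chains (Ifnar1, Ifnar2, Ifngr1 and Ifngr2), 3 kinases (Jak1, Jak2 and Tyk2) and the transcription factor gene Stat2. They were taken by symbol from an RNA-seq count table of 42303 rows, in which all 8 were found. All 8 passed the minimum of 50 counts, summed over both libraries, which 14367 genes did. Microglia from mice at peak EAE (experimental autoimmune encephalomyelitis, an induced disease used as a model of multiple sclerosis) were set against microglia from naive mice, taken before induction. EAE was induced at 24 to 28 weeks of age with residues 35 to 55 of myelin oligodendrocyte glycoprotein, a component of the myelin sheath. Peak was defined as the second day on which a clinical score that had worsened day after day no longer went up. The labels do not give the age of the naive mice. The labels give Ccr2rfp/+::Cx3cr1gfp/+ mice on a C57Bl/6 background, so 1 copy of Ccr2 and 1 copy of Cx3cr1 carried a reporter. Cells came from brains and spinal cords, were separated on Percoll, sorted on F4/80 and CD45, and pooled from 30 mice per condition. The single RNA-seq library of each condition held 36561934 counts at peak and 31282093 counts in naive cells. Methylated DNA was captured with a methyl-CpG binding domain and sequenced (MiGS) in 2 libraries per condition.

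Type I interferons bind a receptor made of IFNAR1 and IFNAR2, which carry TYK2 and JAK1. Interferon gamma, the type II interferon, binds IFNGR1 and IFNGR2, which carry JAK1 and JAK2. Type I signalling brings STAT2 and IRF9 into a complex that binds the interferon-stimulated response element (ISRE), while many genes induced by interferon gamma carry the gamma-activated site (GAS). In microglia and other macrophages these pathways are known for inducing antigen presentation, chemokine and antiviral genes, and STAT2 is itself inducible.

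The 3 receptor genes Ifnar2 (chr16:91372783-91405589), Ifnar1 (chr16:91485032-91510523) and Ifngr2 (chr16:91547059-91564007) lie on the plus strand of chromosome 16 within 191 kb. Il10rb, a chain of the interleukin 10 and lambda interferon receptors, begins 568 bp after Ifnar2. Ifngr1 (chr10:19591949-19610229) and Stat2 (chr10:128270498-128292853) lie far apart on chromosome 10, both on the plus strand. Jak2 (chr19:29251803-29313095) is on the plus strand, and Jak1 (chr4:101151974-101265282) and Tyk2 (chr9:21104068-21131393) are on the minus strand. Coordinates are those of RefSeq on GRCm38.p6, the patched form of the mm10 build that the files use.

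The DNA just before 4 of these genes is shown to mark 2 features, interferon-related motifs and CpG sites, the sites that a methyl-CpG binding domain can capture. Whether the motifs bear on the RNA levels was not tested. Each line holds the 250 bases before the RefSeq transcript start, 5′ to 3′ on the strand of the gene, from RefSeq's GRCm38.p6 promoter table, in which all 8 genes were found. Capitals mark the ISRE core in Stat2 and the GAS in Ifnar2.
Stat2, chr10:128270248-128270497, plus strand: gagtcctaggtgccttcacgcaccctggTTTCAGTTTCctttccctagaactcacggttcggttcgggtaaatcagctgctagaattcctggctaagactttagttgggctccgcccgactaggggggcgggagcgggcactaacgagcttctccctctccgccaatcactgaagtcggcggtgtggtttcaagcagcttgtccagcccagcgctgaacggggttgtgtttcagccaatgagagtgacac
Ifnar2, chr16:91372533-91372782, plus strand: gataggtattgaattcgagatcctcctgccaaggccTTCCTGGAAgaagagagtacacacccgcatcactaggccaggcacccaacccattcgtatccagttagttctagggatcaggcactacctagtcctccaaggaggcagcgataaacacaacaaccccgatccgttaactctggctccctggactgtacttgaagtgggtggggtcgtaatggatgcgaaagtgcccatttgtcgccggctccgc
In the next pair, capitals mark every CpG. They are the members with the fewest and the most CpG sites from 250 bases before to 50 bases after the start.
Ifngr1, chr10:19591699-19591948, plus strand: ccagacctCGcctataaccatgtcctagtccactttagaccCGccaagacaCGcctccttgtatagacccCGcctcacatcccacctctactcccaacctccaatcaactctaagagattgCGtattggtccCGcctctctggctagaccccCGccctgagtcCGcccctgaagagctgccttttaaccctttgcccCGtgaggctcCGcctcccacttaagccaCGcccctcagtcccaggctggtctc
Jak2, chr19:29251553-29251802, plus strand: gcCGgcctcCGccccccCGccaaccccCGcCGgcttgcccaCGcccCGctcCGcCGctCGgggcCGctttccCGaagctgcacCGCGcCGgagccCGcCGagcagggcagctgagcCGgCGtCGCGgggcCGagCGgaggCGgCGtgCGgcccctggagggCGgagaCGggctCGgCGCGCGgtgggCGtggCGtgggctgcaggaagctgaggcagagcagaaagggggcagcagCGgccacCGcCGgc

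The search covered 250 bases before to 50 bases after each transcript start, on both strands. The ISRE core (GAAA, then any 2 bases, then GAAA) was found once, in Stat2, as TTTCAGTTTC on the reverse strand from 222 to 213 bases before the start. The same core was in 3.44% of 32851 RefSeq promoters. The GAS (TTC, then any 3 bases, then GAA, which reads the same on both strands) was found in Ifnar2 as TTCCTGGAA, from 214 to 206 bases before the start, and in Ifnar1 as TTCACGGAA, across the start itself. It was in 8.30% of all promoters. No match was found in the windows of Ifngr1, Ifngr2, Jak1, Jak2 and Tyk2, which says only that these letters are not there. The same windows held 44 CpG sites in Jak2, 31 in Ifngr2, 29 in Jak1, 26 in Ifnar1, 23 in Tyk2, 22 in Stat2, 18 in Ifnar2 and 14 in Ifngr1. The median over all 32851 promoters was 7, so every member lay above it.

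Stat2 was 5.37-fold higher in the peak library and Ifngr1 was 2.05-fold lower. The other 6 differed by less than 2-fold. The levels spanned 175 FPKM (Ifngr1) to 22.4 FPKM (Jak2) in the peak library, against 382 FPKM (Ifngr1) to 11.97 FPKM (Stat2) in the naive library. Ratios are of counts scaled by TMM (trimmed mean of M-values), and with 1 library per condition they have no replicate check and no test. Their 95% intervals are exact (Clopper-Pearson) and cover counting error only. A gene is counted as apart at 2-fold or more. By that limit 1 of 8 members was higher, where 11.6% of all genes with the minimum were, and 1 of 8 was lower, where 9.35% of all genes were, so with 8 genes these counts are near the background. The median log2 ratio was 0.17 over the members and -0.0027 over all genes.

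The type I receptor chains were close to level between the libraries. Ifnar1, the chain that carries TYK2, had 6371 counts in the peak library and 5301 in the naive library, or 29.6 and 28.8 FPKM in the authors' values (fragments scaled by gene length and library total). Its scaled ratio was 1.09-fold (interval 1.05 to 1.13), and its log2 value went from 0.20 with DESeq2 size factors to -0.01 with upper quartile scaling, so its direction depends on the scaling. Ifnar2, the long chain that carries JAK1, had 6057 counts in the peak library and 5353 in the naive library (49.8 and 51.4 FPKM). Its ratio of 1.03-fold (interval 0.992 to 1.07) took in no difference, and library totals and upper quartile scaling put it below 1, with log2 values of -0.05 and -0.09. The level of Ifnar2 over that of Ifnar1, in FPKM, was 1.68 in the peak library and 1.78 in the naive library.

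The interferon gamma receptor chains differed from each other. Ifngr1, the chain that binds interferon gamma and carries JAK1, had 18195 counts in the peak library and 34016 in the naive library, with 175 and 382 FPKM. It was the highest of the 8 in both libraries. In the peak library 243 genes with at least 50 counts had a higher FPKM than Ifngr1, and in the naive library 75 had. Its ratio was 2.05-fold lower in the peak library (interval 2.02 to 2.09), and 1264 of the 14367 genes had a lower ratio. The log2 value was -1.04 with TMM, -1.13 with library totals and -1.18 with upper quartile scaling. With DESeq2 size factors it was -0.97, short of 2-fold, a scaling under which 8.44% of all genes were at least 2-fold lower. In RNA of pooled cells, fewer cells with a transcript and less of it per cell cannot be told apart.

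Ifngr2, the second chain, which carries JAK2, had 7344 counts in the peak library and 5776 in the naive library (60.6 and 55.7 FPKM). It was 1.16-fold higher in the peak library, above 1 under all 4 scalings, and its log2 ratio ranged from 0.07 to 0.28 over them. The level of Ifngr1 was 2.88 times that of Ifngr2 in the peak library (interval 2.81 to 2.96) and 6.85 times in the naive library (6.66 to 7.05). The 2 libraries thus differ in the proportion of the 2 chains' transcripts, by 0.421-fold, a ratio that no scaling of the libraries alters. Of the summed FPKM of the 4 receptor chains, 315 in the peak library and 518 in the naive library, Ifngr1 made up 55.5% at peak and 73.7% in naive cells.

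**Figure D1:**
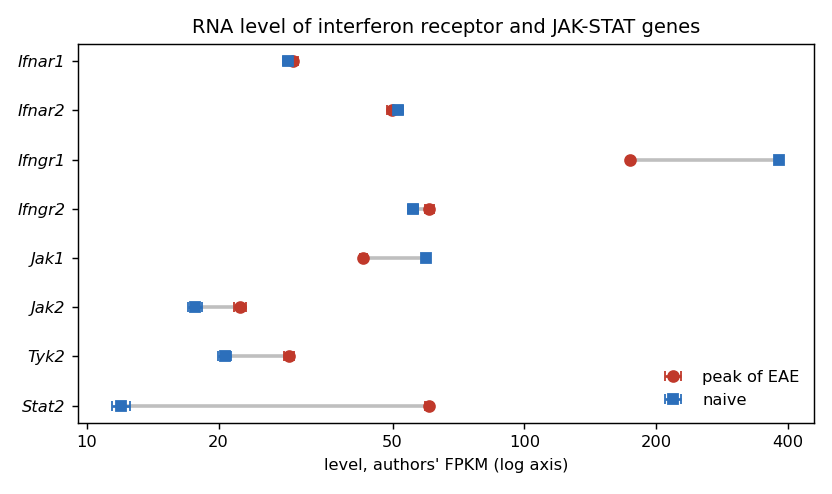
RNA level of the 8 genes in the peak library (red circles) and the naive library (blue squares), as the authors' FPKM on a log axis, with exact 95% intervals for counting error that are mostly narrower than the symbols. Ifngr1 lay highest in both libraries, at 175 and 382 FPKM, and Stat2 lay at 60.5 FPKM in the peak library and lowest of all, at 11.97 FPKM, in the naive library.

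The kinases did not move as a group. Jak1, which serves both receptors, had 11309 counts in the peak library and 13482 in the naive library (42.8 and 59.6 FPKM) and was 1.31-fold lower (interval 1.28 to 1.34). Jak2, the kinase of IFNGR2, had 4117 counts in the peak library and 2783 in the naive library (22.4 and 17.7 FPKM) and was 1.35-fold higher (1.28 to 1.41). Tyk2, the kinase of IFNAR1, had 4891 counts in the peak library and 2985 in the naive library (29.0 and 20.7 FPKM) and was 1.49-fold higher (1.42 to 1.56). All 3 kept their direction under the 4 scalings and stayed short of 2-fold.

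Because Jak1 was lower and the other kinases higher, their levels lay closer together at peak. The level of Jak1 in FPKM was 1.91 times that of Jak2 in the peak library and 3.37 times in the naive library. Against Tyk2 the level of Jak1 was 1.48 times as high at peak and 2.89 times as high in naive cells. The summed FPKM of the 3 kinases was 94.1 in the peak library and 98.0 in the naive library, with 45.5% and 60.9% of it from Jak1. The sum of the kinases was therefore nearly level while its makeup differed.

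Stat2, the STAT particular to the type I and lambda interferon pathways, had 9719 counts in the peak library and 1647 in the naive library, or 60.5 and 11.97 FPKM. The ratio was 5.37-fold (interval 5.10 to 5.66), with log2 values from 2.29 to 2.49 over the 4 scalings, and 574 of the 14367 genes had a higher ratio. Stat2 was the lowest of the 8 genes in the naive library. In the peak library its level lay beside that of Ifngr2, with intervals that overlapped. Its level in FPKM was 2.09 times that of Tyk2 at peak and 0.580 times in naive cells.

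In the order of FPKM levels, the peak library ran Ifngr1, Ifngr2, Stat2, Ifnar2, Jak1, Ifnar1, Tyk2 and Jak2. There the neighbours Ifngr2 and Stat2, and also Ifnar1 and Tyk2, did not differ beyond counting error. The naive library ran Ifngr1, Jak1, Ifngr2, Ifnar2, Ifnar1, Tyk2, Jak2 and Stat2, with no overlap between neighbours. Jak1 stood below Ifnar2 at peak and above it in naive cells.

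**Figure D2:**
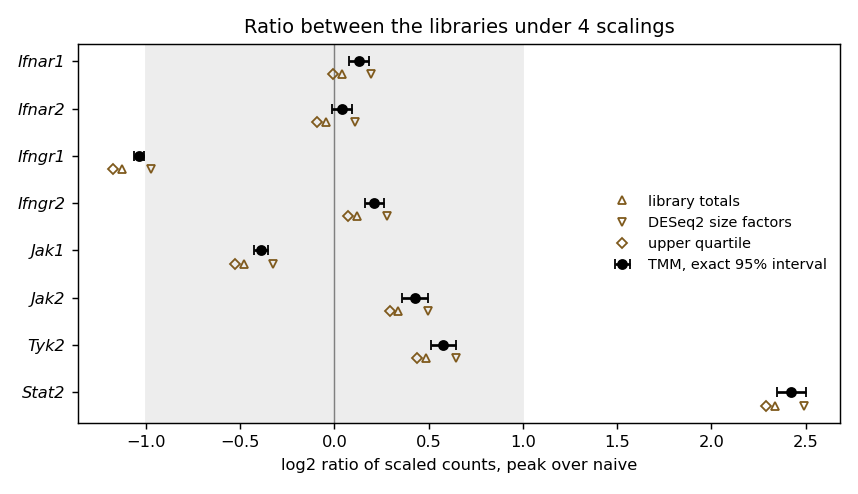
The log2 ratio of scaled counts, peak over naive, for each gene: black circles with exact 95% intervals for TMM, and open symbols for library totals, DESeq2 size factors and upper quartile scaling. The grey band marks less than 2-fold. Stat2 lay far to the right under every scaling (2.29 to 2.49), Ifngr1 lay on either side of the left edge of the band (-0.97 to -1.18), and Ifnar1 and Ifnar2 lay on both sides of 0.

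Other genes of these signalling complexes, and Jak3, were compared next. Irf9, the DNA-binding part of the complex that holds STAT2, had 4552 and 3085 counts in the peak and naive libraries and was 1.34-fold higher. The FPKM of Stat2 was 2.62 times that of Irf9 in the peak library and 0.654 times in the naive library. Il10rb, between Ifnar2 and Ifnar1 on chromosome 16, had 4509 counts in the peak library and 4349 in the naive library (log2 ratio -0.08). Jak3, the kinase of the common gamma chain receptors and not of the interferon receptors, had 6319 counts at peak and 2145 in naive cells and was 2.68-fold higher. Of the 3 listed genes that passed the minimum, Jak3 alone was 2-fold apart (1 of 3, where 11.6% of all genes were higher), and Irf9 and Il10rb were not. Ifnlr1, the lambda interferon receptor chain, had 4 counts at peak and 7 in naive cells.

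Of the 5 other STAT genes, 4 had at least 50 counts, and none of them was 2-fold apart, with log2 ratios from -0.28 (Stat6) to 0.44 (Stat3). Among 4 measured class II cytokine receptor genes outside the members, the structural family of the interferon receptors, 0 were at least 2-fold higher and 0 lower with TMM. These 4 include Il10rb, already counted above. The lowest was F3, the gene of tissue factor, with 355 counts at peak and 610 in naive cells (log2 ratio -0.92).

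The ligands themselves were scarcely seen in these cells. None of 21 interferon genes had 50 counts, and 17 had 0 counts in both libraries, which allows up to 3 counts in each. Ifnb1, the gene of interferon beta, had 32 counts in the peak library and 0 in the naive library. Ifng, made mainly by T and natural killer cells, had 16 counts at peak and 1 in naive cells.

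Genes that act downstream of the receptors or restrain them were counted in the same way, from lists chosen with earlier results known. Of 15 negative regulators of the pathway, 6 were at least 2-fold higher, 0 lower and 9 neither, with a median log2 ratio of 0.41. The 6 include Isg15, a ubiquitin-like modifier (767 counts at peak and 67 in naive cells, 10.3-fold), and Socs1, an inhibitor of JAK kinases (816 and 92 counts at peak and in naive cells, 8.03-fold). Usp18, which binds IFNAR2 and removes ISG15 from proteins, was 7.25-fold higher and Socs3, another inhibitor of cytokine signalling, 6.74-fold. Of 25 type I interferon target genes 24 were at least 2-fold higher (median log2 ratio 2.86), and of 19 measured interferon gamma target genes 17 were (median 3.14). The counts overlap in part, since Isg15 and Usp18 are in both the first and the second list. Over all genes the median was -0.0027 and 11.6% were at least 2-fold higher. Ifngr1, the gene of a chain of the interferon gamma receptor, was on the lower side in the same library. How the target lists relate to the level of the receptor genes was not tested.

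**Figure D3:**
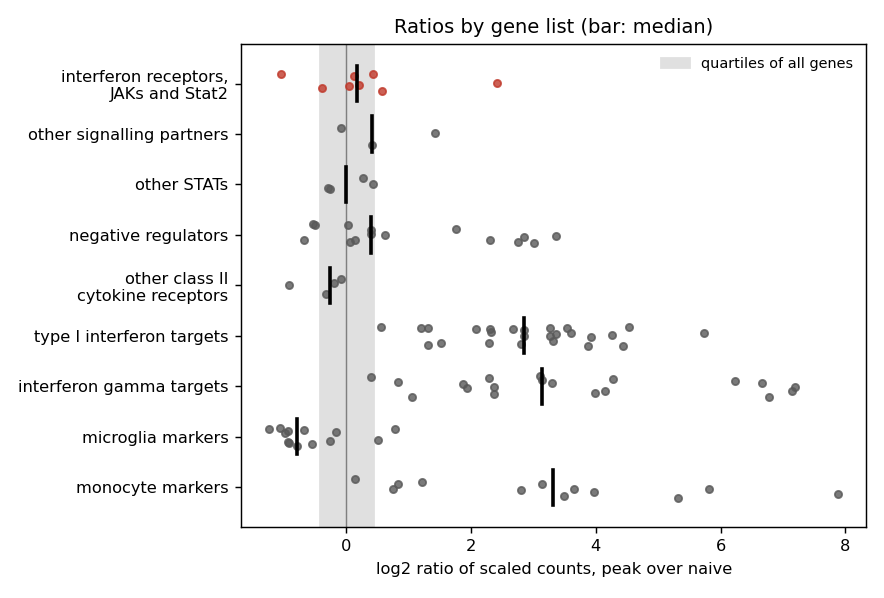
Log2 ratios, peak over naive, of every gene with at least 50 counts in each list (points, spread at random within a row), with the list's median as a bar. The grey band runs from the lower to the upper quartile of all 14367 genes. The 8 interferon receptor, kinase and Stat2 genes lay around 0 apart from Stat2 and Ifngr1, while the medians of the type I interferon and interferon gamma target lists lay at 2.86 and 3.14.

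The genes most like 2 of the members in level were sought by the distance in log2(FPKM + 1) over the 2 libraries. Stat2, the member with the largest absolute log2 ratio, lay nearest to Sdc3 (58.7 FPKM at peak, 12.1 in naive cells), Irgm1 (57.1 at peak, 11.8 in naive cells) and Selenow (56.9 at peak, 10.8 in naive cells). Irgm1 is itself in the interferon gamma target list. Ifnar2, the member closest to no difference, lay nearest to Vwa5a, Ldb1 and Ghitm, all with 49.2 to 49.96 FPKM at peak and 50.1 to 51.5 FPKM in naive cells. Ifngr1 was added after its values were seen. Its nearest genes were Mertk (194 FPKM at peak, 333 in naive cells), Cmtm6 (183 at peak, 295 in naive cells) and the microglial marker Siglech (217 at peak, 442 in naive cells). They lay farther off (distances 0.25 to 0.38) than the nearest genes of Stat2 (0.045 to 0.165) and Ifnar2 (0.0058 to 0.040).

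Markers of microglia were abundant in both libraries, and cell type markers differed between them. Over all genes with the minimum, 11.6% were at least 2-fold higher and 9.35% lower, the shares to set beside each marker list. Of 13 measured microglia markers 2 were at least 2-fold lower and 0 higher, with a median log2 ratio of -0.78, and their summed FPKM was 10811 at peak and 16666 in naive cells. P2ry12 had 60990 counts at peak and 115890 in naive cells (log2 ratio -1.06), and Tmem119 had 74977 and 128048 (log2 ratio -0.91). The log2 ratios of the list ran from -1.23 (Fcrls) to 0.79 (Aif1), with Itgam also above 0 at 0.51. Ifngr1, at -1.04, lay below the median of this list. Of 12 measured monocyte markers 9 were higher and 0 lower, with a summed FPKM of 163 at peak and 28.1 in naive cells. Ly6c2 had 338 counts at peak and 5 in naive cells, and Ccr2 had 1059 and 542, with 1 Ccr2 copy replaced by a reporter in these mice. T cell markers summed to 5.63 FPKM at peak and 1.72 FPKM in naive cells, and 4 of 5 measured ones were higher. Cd3e had 2 counts at peak and 0 in naive cells. The part of these cells in the results for Stat2, Ifngr1 and the kinases was not tested.

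The remaining marker lists had far smaller sums than the microglia list. Border macrophage markers summed to 54.7 FPKM at peak and 86.5 in naive cells, with 1 of 6 higher and 2 lower. Neutrophil markers summed to 27.9 and 27.4 FPKM at peak and in naive cells, with 2 of 6 higher and 2 lower. Astrocyte markers summed to 40.4 FPKM at peak and 74.0 in naive cells (1 of 5 higher, 2 lower), and endothelial markers to 11.4 FPKM at peak and 25.4 in naive cells (4 of 5 lower). Dendritic cell markers summed to 56.3 FPKM at peak and 8.55 in naive cells, of which 54.9 and 5.86 FPKM were Itgax, a gene of many myeloid cells. B cell markers summed to 10.3 FPKM at peak and 15.1 in naive cells, and Cd79b was the one with at least 50 counts.

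Genes beside the members bear on how their counts can be read. The labels name a stranded library kit, but not whether reads were counted by strand. The largest overlap with a neighbouring gene is that of Ifnar2, whose first 6540 bp are shared with the long noncoding RNA gene Gm36587, which was not analysed here, so its share in the counts of Ifnar2 is unknown. Stat2 overlaps Apof by 753 bp and Jak1 overlaps Raver2 by 397 bp. Apof had 5 counts at peak and 2 in naive cells and Raver2 had 32 at peak and 38 in naive cells. Cdc37, the gene of a kinase co-chaperone 8038 bp from Tyk2, had 3495 counts at peak and 2097 in naive cells, a log2 ratio of 0.60 beside 0.58 for Tyk2. Timeless, 17557 bp before Stat2, had 1212 counts at peak and 85 in naive cells. On the other side of Stat2, Pan2 had 970 and 887 counts at peak and in naive cells (log2 ratio -0.0071), so the high ratio was not shared by all neighbours.

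MiGS gave a second, independent readout of the same 8 genes: how much methylated DNA was captured along them. The authors' values are signal per 50 bp window and are whole reads times 1 factor per library. In the region from 1000 bp before to 500 bp inside the gene, Ifngr1, Ifngr2, Jak1, Jak2 and Tyk2 had 0 reads in all 4 libraries, which allows up to 3 reads in each. Of 16457 protein-coding gene starts on chromosomes 1 to 19, 64.4% had none. A window without reads may hold unmethylated DNA or DNA that the capture did not recover, and these cannot be told apart. The 5 genes include the members with the most and the fewest CpG sites in their promoter windows, Jak2 and Ifngr1.

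Ifnar1, Ifnar2 and Stat2 had reads at the start, all of them 456.5 to 957.5 bp before it and none inside the gene. The windows with reads before Stat2 lie within Apof and those before Ifnar2 lie within Gm36587, the neighbours that overlap these genes. Stat2 had a signal of 14.9 and 29.4 per kb in peak replicates 1 and 2, against 22.7 and 31.7 per kb in naive replicates 1 and 2. Ifnar2 had 14.9 and 26.1 per kb in the peak libraries, against 12.1 and 22.5 in the naive libraries. Ifnar1 had 12.7 and 10.9 per kb in the peak libraries, against 12.1 and 14.7 in the naive libraries. The groups overlapped for all 3 genes, and replicate 2 was the higher library of its group except for Ifnar1 at peak. The log2 change from peak over naive was -0.34 ± 0.64 for Stat2, 0.24 ± 0.71 for Ifnar2 and -0.17 ± 0.85 for Ifnar1 (limma, ± SE, n = 2 per condition), with Benjamini-Hochberg adjusted p of 0.913, 0.949 and 0.976. Of all 3803 gene starts with at least 20 reads, 0 were called by limma at an adjusted p under 0.05 (0%), and 182 had an unadjusted p under 0.05. The edgeR test called 0 as well, with 178 at an unadjusted p under 0.05. With 2 libraries per condition a difference at Stat2 would have to be large to be seen: its 95% interval ran from -1.59 to 0.91 in log2.

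**Figure D4:**
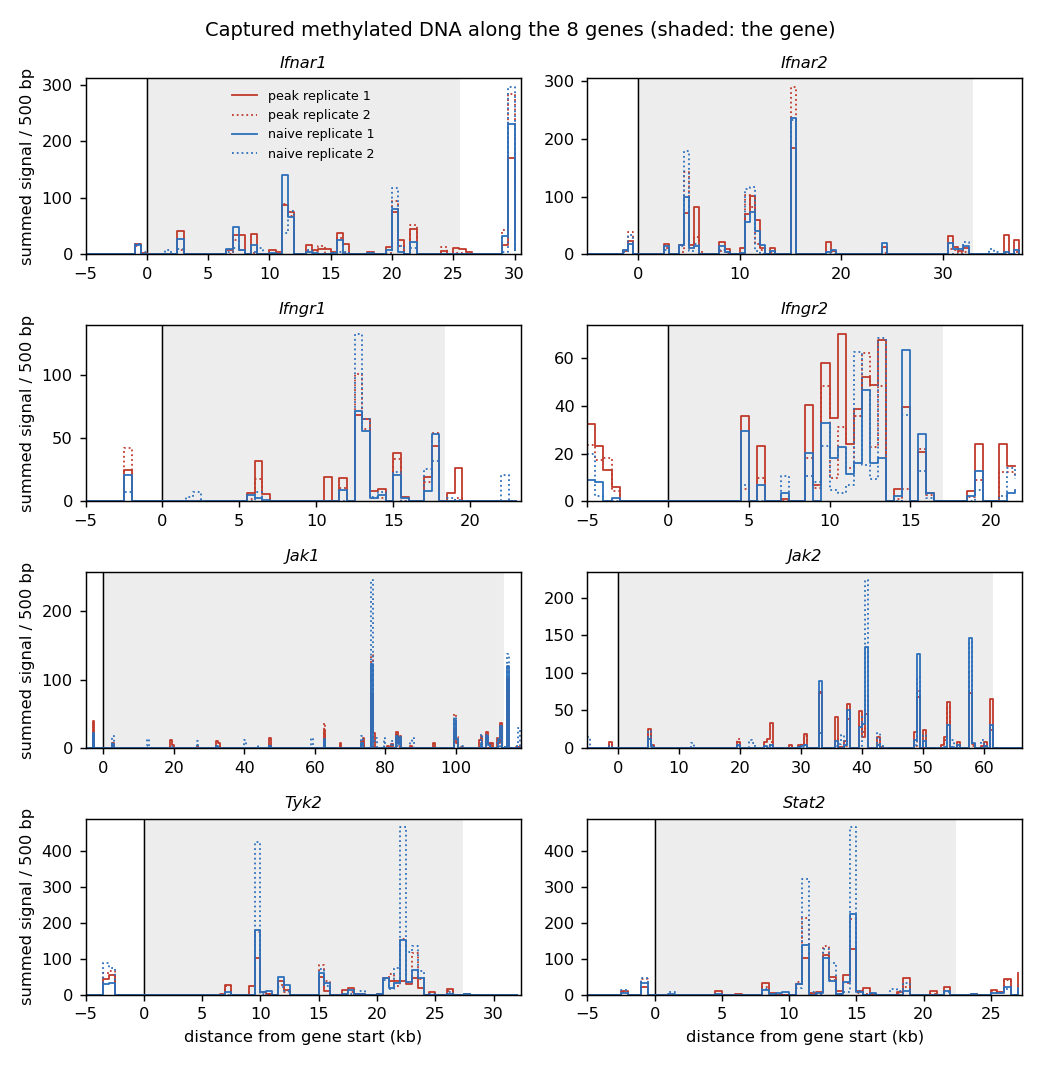
MiGS signal summed in steps of 500 bp along each of the 8 genes, from 5 kb before the start to 5 kb after the end (shaded: the gene), for the 2 peak libraries (red) and the 2 naive libraries (blue). At the start (vertical line) 5 of 8 genes had no signal, and the strongest peaks of Stat2 and Tyk2 lay far inside the gene and were highest in naive replicate 2.

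All 8 gene bodies held captured DNA, with 1237 (Ifngr1) to 3807 (Tyk2) reads over the 4 libraries, which count a fragment in several windows. The signal per kb was lowest in Jak1, at 3.92 and 3.08 in the peak libraries and 2.88 and 4.98 in the naive libraries. Tyk2 had 23.1 and 33.1 per kb in the peak libraries, against 30.7 and 57.0 in the naive libraries. Stat2 had 30.3 and 34.3 per kb in the peak libraries, against 29.6 and 53.3 in the naive libraries. Tyk2 and Stat2 thus had the highest single values of the 8 genes, both in naive replicate 2, and their groups overlapped.

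Among the receptor genes, Ifngr2 had 35.8 and 21.35 per kb in the peak libraries, against 21.28 and 17.6 in the naive libraries, and Ifnar2 had 24.7 and 23.4 in the peak libraries, against 21.6 and 22.9 in the naive libraries. For Ifngr2 and Ifnar2 the lower peak value lay above the higher naive value, by less than 1 SD of either group. The share of all gene bodies with such a separation was not counted, so nothing about these genes is read from it. Ifnar1 had 24.3 and 17.8 per kb in the peak libraries, against 19.2 and 13.2 in the naive libraries, and Ifngr1 had 19.5 and 17.1, against 13.6 and 17.7 in the naive libraries. Jak2 had 11.9 and 9.53 per kb in the peak libraries, against 11.9 and 12.3 in the naive libraries. No member was called: limma's log2 changes ran from -0.58 ± 0.40 (SE, n = 2 per condition) for Tyk2 to 0.50 ± 0.35 for Ifngr2, each with an adjusted p of 0.963. Single libraries set the size of both: leaving out 1 library moved the Tyk2 value between -1.02 (without naive replicate 1) and -0.14 (without naive replicate 2), and that of Ifngr2 between 0.14 (without peak replicate 1) and 0.85 (without peak replicate 2). The Stat2 value was -0.30 ± 0.39 with an adjusted p of 0.963 (limma), so its large difference in RNA had no counterpart in gene body signal that passed the test. Of all 16588 gene bodies tested, 1 was called (0.00603%), and the edgeR test called 0, with 634 and 497 at an unadjusted p under 0.05. That gene, named after its values were seen, was Il23a, the interleukin 23 subunit gene that begins 3287 bp after Stat2. The median log2 change over all gene bodies was -0.11.

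**Figure D5:**
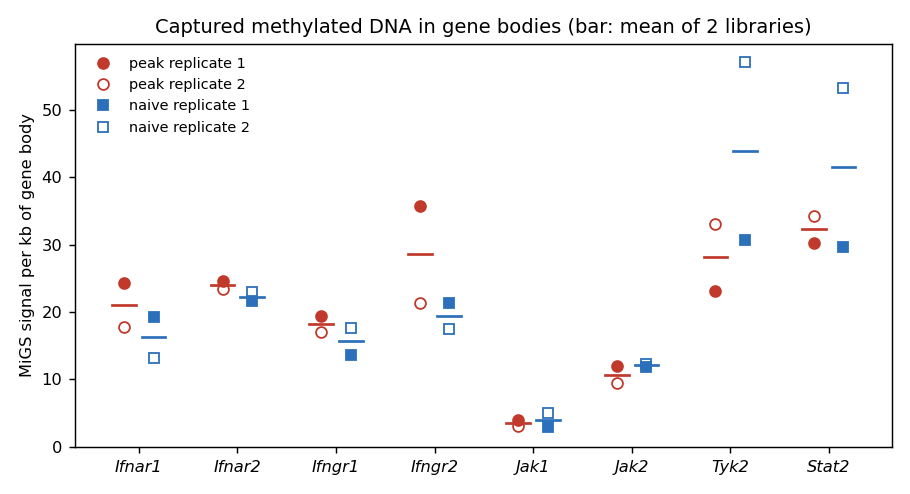
MiGS signal per kb of gene body for each gene in the 2 peak libraries (red circles) and the 2 naive libraries (blue squares), with filled symbols for replicate 1, open symbols for replicate 2 and a bar at the mean. Values of naive replicate 2 stood apart upward in Tyk2 (57.0) and Stat2 (53.3), and Jak1 was lowest throughout.

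Within the genes the captured DNA was concentrated in a few places, described here by the 50 bp window with the highest mean over all 4 libraries and chosen after the values were seen, with no test. In Stat2 it was chr10:128285401-128285450, 66.8% of the way along the gene, with a signal of 27.3 and 58.8 in the peak libraries, against 64.7 and 142 in the naive libraries. In Tyk2 it was chr9:21109301-21109350, with 12.4 and 51.4 in the peak libraries, against 48.8 and 157 in the naive libraries. In Jak2 it was chr19:29292351-29292400, with 10.8 and 25.3 in the peak libraries, against 46.5 and 74.3 in the naive libraries. The groups did not overlap in the windows of Stat2 and Jak2, and overlapped in that of Tyk2. The share of all windows with such a separation was not counted, so it is not read as a trait of these genes. Naive replicate 2 was highest in all 3.

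In the strongest windows of Jak1 (chr4:101189101-101189150) and Ifnar2 (chr16:91388001-91388050) the groups overlapped. Jak1 had 19.9 and 38.4 in the peak libraries, against 32.9 and 69.7 in the naive libraries, and Ifnar2 had 32.3 and 64.5 in the peak libraries, against 45.4 and 53.4 in the naive libraries. In all 8 genes the strongest window lay between 45.3% (Ifnar1) and 80.8% (Tyk2) of the way from start to end, so none was near a gene start.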

How the data were processed

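RNA was measured in 1 library and methylated DNA (MiGS) in 2 libraries per condition. The submitters' processing notes name the tools TopHat, Bowtie2, edgeR and featureCounts and the build mm10, with no role or version. The deposited RNA-seq table holds raw counts per gene, per the file headers, and FPKM computed by the authors. FPKM equals the count divided by the library total and gene length, so a ratio of FPKM is the ratio under library totals. The 506 rows without a symbol held 0.0647% of peak and 0.0573% of naive counts and entered no list. The deposited MiGS files hold signal per 50 bp window, in which 100% of values came out as whole reads within 0.001. Reads summed over windows ranged from 30424742 to 43970332 per library.

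Groups came from the sample titles. Counts were scaled by TMM (edgeR 4.0.16) over genes with at least 50 counts, with 0.5 added on the log2 scale. MiGS was fitted with limma 3.58.1 (variance trend, two-sided, Benjamini-Hochberg) on log2(value per kb + 1) for protein-coding RefSeq genes on chromosomes 1 to 19 with at least 20 reads, leaving 500 bp out at both ends of a gene body. Fold changes on that scale understate low values. Chromosomes X and Y were not analysed here. Nothing says that the MiGS libraries came from separate animals, so the p-values reflect the spread among these libraries alone, which may be technical. Both steps were tested on simulated data with large added changes, for MiGS in gene bodies only. That does not show whether limma can find changes as small as those of the members. The alternatives were other scalings, minimums, pseudocounts, gene start bounds, the edgeR quasi-likelihood test, DESeq2 1.42.0 size factors, a replicate block and leaving out each MiGS library. Named genes were all members, up to 4 genes of the largest absolute ratio per list, Irf9, Il10rb and Socs1, the 3 genes nearest in level, neighbours in the genome and defining markers, and some of them are not reported here. The members and lists were chosen with earlier results of these data known. Other tools were R 4.3.3, Python 3.11.15 and scipy 1.17.1.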

Additional observations from a re-analysis of the deposited data

How the results depend on the processing

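The log2 ratios of Ifnar1 and Ifnar2 changed sign between scalings, and those of the other 6 members did not. The count of 1 member at least 2-fold higher (Stat2) held in all of them. The 1 member lower (Ifngr1) became 0 with DESeq2 size factors. Without a count minimum 4212 genes were at least 2-fold higher and 3835 lower, 3 interferon ligands were higher and 1 interferon gamma target was lower, on few counts, and with a minimum of 200 counts 696 genes were lower. Library totals, upper quartile scaling, no minimum and FPKM each put 1 class II receptor gene 2-fold lower. Over all genes the median log2 ratio was -0.0027 with TMM and -0.14 with upper quartile scaling.

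In MiGS no member was called in any setting (lowest adjusted p 0.185 in limma with the replicate block). Sample numbers are not stated to pair the libraries, and deviations of same-numbered libraries correlated at 0.169 in gene starts and 0.377 in gene bodies over only 2 pairs. With the replicate block limma called 16 gene starts higher and 169 lower, and 241 gene bodies higher and 908 lower, 0 of them members. A pseudocount of 0.5 gave 1 gene start. Gene bodies called higher were 0 with at least 100 reads and with edgeR, and 3 over genes of every biotype, an alternative chosen after seeing the data. Leaving out 1 library gave 0 to 54 gene bodies higher and 0 to 18 lower, the 54 without peak replicate 2 and the 18 without peak replicate 1. Member changes reversed with a library left out, the cause not tested: the Ifnar2 start ranged from -0.18 to 0.66 in log2 (below 0 without naive replicate 1 or peak replicate 2), the Stat2 start from -0.81 to 0.13 (above 0 without peak replicate 1), the Jak1 body from -0.42 to 0.21 (above 0 without naive replicate 2 or peak replicate 2) and the Stat2 body from -0.71 to 0.12 (above 0 without naive replicate 2).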

Other observations

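The 1 gene body that limma called, Il23a, lies next to Stat2 and was looked at after its values were seen. Its MiGS signal, summed over the 945 bp of the gene body tested, was 42.2 and 32.7 in peak replicates 1 and 2 (51 and 40 reads). In naive replicates 1 and 2 the sum was 3.41 and 2.32 (3 and 2 reads). The log2 change was 3.34 ± 0.35 (SE, n = 2 per condition) with an adjusted p of 0.0202 in limma, and the call was lost with edgeR and without either naive library. Its RNA had 1 count in each library, so nothing can be read about its expression. Il22ra2, the gene of the soluble interleukin 22 receptor that lies 11799 bp after Ifngr1, had 2 counts at peak and 13 in naive cells. Insl6, the relaxin family gene 8259 bp after Jak2, had 17 counts at peak and 0 in naive cells. Both are under the minimum of 50 counts and were not compared.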
